A study of Mus musculus with 4 samples.

Results

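NB1 is the larger of the 2 clusters of neuroblasts that the authors drew along the path from radial glia-like cells (RGLs) to granule cells in the adult mouse dentate gyrus. Its members were the nuclei that carry the name NB1 in the deposited table of clusters, which made 2578 of the 14367 nuclei with a cluster. Nuclei were sorted from mice that carry a tamoxifen-dependent Cre active in progenitors and the reporter CAG-floxStop-Sun1/sfGFP, in which recombination turns on a green fluorescent protein of the nuclear envelope. All groups shared this genotype and treatment: male and female mice on a C57Bl/6J background, 6 to 8 weeks old, received tamoxifen, and dentate gyri of the left hemisphere were collected 1, 2, 4 or 8 weeks later (w1, w2, w4 and w8). Each week is 1 library of 4 pooled dentate gyri, so no week has a replicate and no test between weeks was made. The sort keeps every cell that recombined and its progeny, so a week gives the time since tamoxifen and not the age of a cell.

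Neuroblasts are newborn neurons that have left the cell cycle but have not yet grown into the circuit. In the dentate gyrus they follow Eomes-expressing intermediate progenitors, settle in the subgranular zone and extend first neurites while GABA still depolarises them. Doublecortin, a microtubule-binding protein, is their classical marker, and Prox1, a homeodomain factor, fixes granule cell identity.

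NB1 held 1492 of the 2867 nuclei of w1, which is 52.0% (95% Clopper-Pearson interval 50.2 to 53.9). The share was 22.5% in w2 (956 nuclei, 21.3 to 23.8) and 3.39% in w4 (130 nuclei, 2.84 to 4.02). None of the 3426 nuclei of w8 was in NB1, which sets an upper limit of 0.0876%. The cluster was thus filled from the early cohorts and empty in the latest. NB1 summed to 6364115 UMIs (unique molecular identifiers, each a counted RNA molecule) in w1, 4087892 in w2 and 446317 in w4, with a median of 4057.5 UMIs and 2050.5 detected features per nucleus. Levels are given as UMIs per 1000000 UMIs of the same nuclei (CPM), and all intervals cover counting error only.

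The pools differ in how many nuclei of each sex they gave to a cluster, which bears on every comparison with NB2. Calling sex by UMIs of Ddx3y, Uty and Eif2s3y against Xist and Tsix, male nuclei were 54.5% of the called NB1 nuclei in w1, 34.2% in w2 and 24.4% in w4. In NB2 they were 99.5% in w1 (406 of 408), 9.15% in w2 (13 of 142) and 100% in w4 (12 of 12). In GCimm1 they were 96.1%, 24.9% and 27.9%. No call was possible for 189 of 1492 NB1 and 152 of 560 NB2 nuclei of w1. Before clustering, the authors left out further nuclei of w4, most of them male by these genes. The w4 shares here and above are of the nuclei that remained. NB1 was the neuroblast cluster with both sexes in every library, whereas NB2 was nearly all of 1 sex in each. The total counts of calls against NB2 and GCimm1 are therefore also given within 1 sex. So are the ratios to NB2 of most of the genes named in that comparison. Counts within gene lists are of all nuclei only. No barcode occurred in NB1 in more than 1 library.

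**Figure D1:**
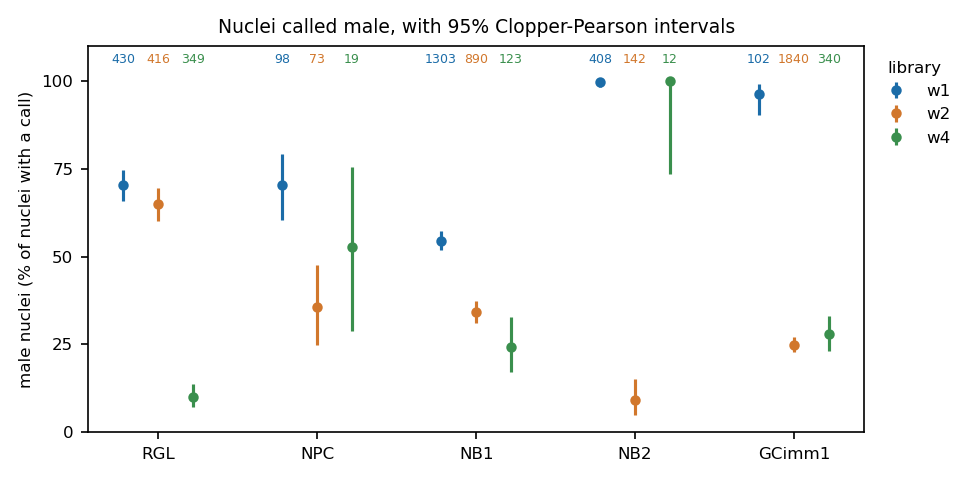
Male nuclei as a percentage of nuclei with a sex call in 5 clusters of the path, by library (points: share, bars: 95% Clopper-Pearson interval, digits above: nuclei with a call). NB1 lies between 24.4% and 54.5%, and NB2 at 99.5% in w1, 9.15% in w2 and 100% in w4.

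The marker genes given for the cluster were high in NB1 and nearly steady over the weeks. Dcx, which encodes doublecortin, was at 481 CPM in w1 (464 to 498), 411 in w2 (392 to 431) and 484 in w4 (422 to 553). Sox11, a transcription factor of immature neurons, was at 665, 684 and 632 CPM. Igfbpl1, a secreted protein related to insulin-like growth factor binding proteins, was at 681, 757 and 715 CPM. Prox1 was at 912, 797 and 872 CPM. Pooled over libraries these 4 genes were highest in NB1, but this order did not hold within libraries: Prox1 was higher in GCimm1 in each (937, 806 and 909 CPM), Igfbpl1 was higher in NB2 in w2 (783 CPM) and w4 (794), and Dcx (602) and Sox11 (692) were higher in NB2 in w4. In each of these cases the counting intervals of NB1 and the other cluster overlapped, and NB2 has 18 nuclei in w4. A pooled level weights the weeks by their UMIs, and NB1 was mostly from w1 and GCimm1 mostly from w2. Pooled over libraries, Dcx was at 455 CPM in NB1 against 403 in NB2, 321 in GCimm1, 194 in NPC and 5.25 in RGL. Prox1 was at 867 CPM pooled in NB1 and 311 in NPC, and it is not among the genes of the deposited expression table. Fam163a, a membrane protein of little known function, did not follow the label: it was at 114, 124 and 128 CPM in NB1 and at 281, 260 and 304 CPM in GCimm1, where it was highest. Its ratio to GCimm1 was -1.20 ± 0.13 on the log2 scale (SD, n = 3 libraries), the one marker of the 5 past 2-fold in that comparison.

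A UMI of Dcx was found in 75.8% of NB1 nuclei, of Sox11 in 86.6%, of Igfbpl1 in 88.3%, of Prox1 in 85.1% and of Fam163a in 28.5%. With each nucleus thinned to 2000 UMIs the shares were 55.7%, 70.1%, 72.9%, 72.4% and 17.7%. Oligodendrocytes, which should lack the neuronal genes, had a UMI of Dcx in 4.44%, of Sox11 in 8.89%, of Igfbpl1 in 6.67% and of Fam163a in 0% of 45 nuclei, at a median of 4801 UMIs. They give no such reference for Prox1, which was at 131 to 298 CPM in them in every library. At least 3 of the 5 markers had a UMI in 89.7% of NB1 nuclei, 88.8% of NB2, 95.9% of GCimm1, 42.2% of NPC and 2.16% of RGL nuclei. By this count NB1 lay far above RGL and oligodendrocyte nuclei, less far above NPC, and close to NB2 and GCimm1.

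**Figure D2:**
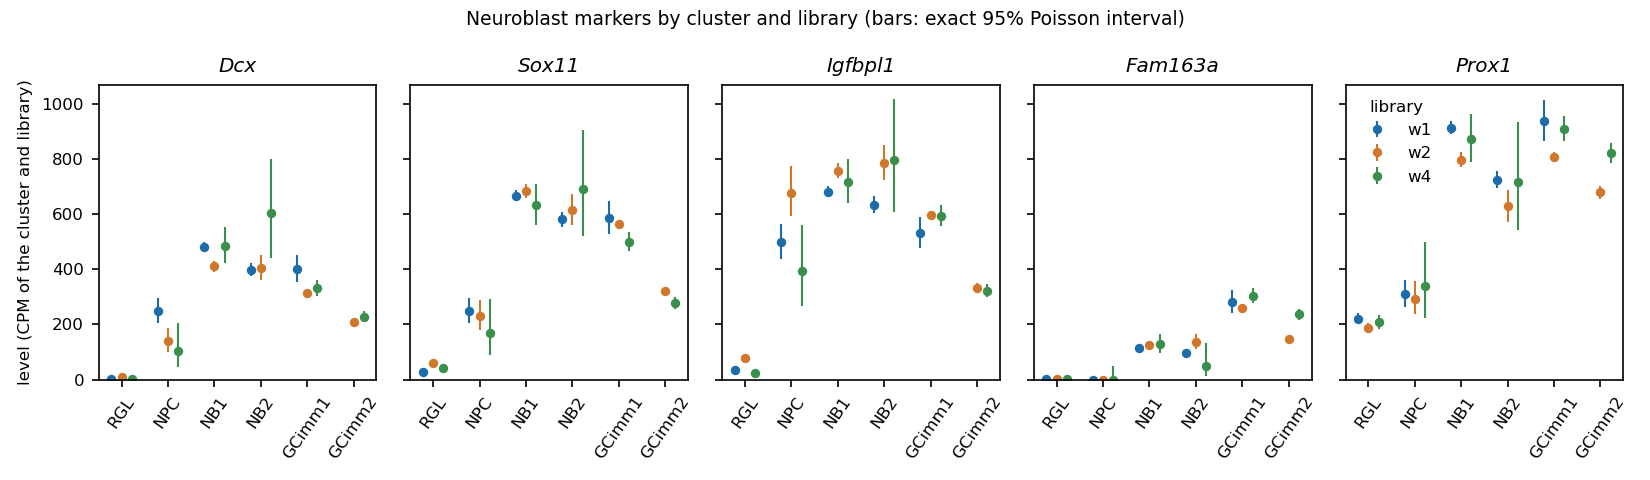
Levels of the 5 marker genes in 6 clusters of the path, by library with 10 or more nuclei (points: CPM, bars: exact 95% Poisson interval). Sox11, Igfbpl1 and Prox1 are within 2-fold of NB1 in NB2 and GCimm1, Dcx is lower in GCimm1 than in NB1 in w1, w2 and w4, and Fam163a is highest in GCimm1.

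Radial glia genes were not absent from NB1: the list summed to 977, 792 and 907 CPM in w1, w2 and w4, and pooled to 905 CPM against 9135 in RGL, 3157 in NPC, 500 in NB2 and 172 in GCimm1, and 81.7% of NB1 nuclei had a UMI of it. Summed over the list, oligodendrocyte genes made up 112, 138 and 119 CPM in NB1 in w1, w2 and w4 and 16416 CPM in oligodendrocytes, and mural and meningeal genes 4.71, 9.05 and 4.48 CPM against 6052 in pericytes. Astrocyte genes made up 533, 566 and 531 CPM against 10675 in astrocytes, and oligodendrocyte precursor genes 59.1, 38.2 and 65.0 CPM against 3541. Microglial and endothelial genes summed to 60.3, 49.4 and 119 CPM, genes of other excitatory neurons to 196, 196 and 213 CPM, and stress genes to 45.1, 65.6 and 110 CPM, and each of these 3 sums was highest in w4. No cluster of these cells was there to set them against, and the pooled sum of the excitatory genes was 197 CPM in NB1, 235 in NB2 and 100 in GCimm1. Single genes carried some of these sums. Slc17a6 of the excitatory list was at 121 CPM pooled in NB1, 162 in NB2 and 73.4 in GCimm1. The precursor list pooled to 51.5 CPM in NB1, and its member Vcan was at 43.2 CPM outside the 30 nuclei described below. Each member of these lists had a UMI somewhere in NB1 except Prkg2 of the precursor list and Sox2 of the radial glia list. Whether free RNA contributes was not tested.

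No feature led in NB1 by 2-fold at the settings used. Of the 7177 features at 20 CPM or more in NB1, 625 (8.71%) were highest there, 7 of them by 1.5-fold and 0 by 2-fold over the next cluster (0% called). The last count was 3 without w2 and 2 with a minimum of 10 CPM. These levels are pooled over libraries. The same rule gave 1 feature for GCimm1, 2 for GCyoung, 9 for GCimm2 and 15 for NB2, so that so low a count was not particular to NB1 on this path, and 81 for RGL and 451 for NPC. No p is attached to any of these, because the clusters were drawn from the same expression values. The feature nearest to the limit was Aff2, a nuclear protein of the family of transcription elongation factors, with 903 CPM in NB1 and 461 in NB2 (1.96-fold). Its levels were 1008, 735 and 934 CPM in NB1 in w1, w2 and w4, against 457, 466 and 576 in NB2, so that every NB1 library was above every NB2 library. Behind it came Kif19a, a kinesin (26.3 against 14.3 CPM), Trim17, a ubiquitin ligase (48.2 against 27.5), Gm13589, Prox1os, the antisense RNA of Prox1 (188 against 116), Gfra2, a receptor of neurturin (120 against 76.2), and Gm28172. F13a1, Cd1d1, Npcd, 4930467D21Rik, Gm16340, Tfb2m, 2810407A14Rik and Tbr1 followed at 1.38- to 1.48-fold, of which Cd1d1 fell to a ratio of 0.999 without w1. Whether the count of Prox1os is free of Prox1 reads depends on the strand setting, which is not given in the sources used here. The same limit holds for Gm28172, which is also annotated as antisense. Tbr1, a T-box factor that succeeds Eomes in glutamatergic lineages, was at 36.4 CPM in NB1 and 26.5 in GCimm1. In 288 of the 625 features the next cluster was NB2.

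With NB2 left out, 14 features (0.195%) were 2-fold or more above every other cluster, 6 of them protein-coding. The count was 26 without w2, 5 with RLE factors and 0 on the deposited log2 values, and the folds are of pooled levels. The long non-coding RNA 4930467D21Rik led this list at 83.6 CPM in NB1 against 15.3 in the next, NPC (5.45-fold), with 103, 55.3 and 62.7 CPM in the 3 libraries. L3mbtl4, a reader of methylated histones, was at 84.6 CPM against 20.1 in GCimm1 (4.21-fold), with 89.9, 80.7 and 44.8 CPM by library. Prdm8, a PR-domain repressor needed for axon outgrowth in cortical neurons, was at 87.7 against 36.7 CPM (2.39-fold), with 89.4, 85.9 and 80.7 CPM by library in NB1 and 73.3, 36.5 and 22.8 in GCimm1, so that it was not past 2-fold in w1. Of the 14 features 5 were 2-fold above their next cluster in each of the 3 libraries (4930467D21Rik, L3mbtl4, Gm13589, Aff2 and Tbxas1), and Gm20125 and Gm26755 were so in none. NB2 was higher still for L3mbtl4 (114 CPM) and Prdm8 (118), and lower for 4930467D21Rik (58.3). The rest were Aff2 (2.73-fold), Trim17 (2.31), Kif19a (2.21), Tbxas1, the thromboxane synthase (2.65), and the non-coding Gm29398, Gm16226, Gm13589, Gm20125, Gm15594, Gm26755 and RP23-120C8.9. Of these Gm16226, Gm15594 and RP23-120C8.9 are annotated as antisense. Gm15594 lies inside Cttnbp2 and RP23-120C8.9 inside Auts2, each on the opposite strand. Whether their counts are free of reads of the genes on the other strand depends on the strand setting, as for Prox1os. A UMI of 4930467D21Rik was in 15.6% of NB1 nuclei, of L3mbtl4 in 16.8%, of Prdm8 in 27.4% and of Aff2 in 73.9%. In oligodendrocytes the shares were 0%, 0%, 4.4% and 15.6%.

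4930467D21Rik (chr5:97392417-97642179, plus strand), Prdm8 (chr5:98167198-98188991, plus strand) and Gm16226 (chr5:99682410-99715774, plus strand) lie near each other on the same chromosome in GRCm38, whereas Aff2 is at chrX:69360294-69868037. RefSeq gave a promoter, 250 bases before to 50 after the start, for 7 of the 14 features. The 3 printed here are those of the leading non-coding RNA, of Prdm8 on the same chromosome and of Aff2, the feature nearest to leading in NB1 alone, and capitals mark matches to CAGATG or CAGCTG on either strand (CATCTG is the first read on the other strand), the E-box forms that proneural basic helix-loop-helix factors bind. They are at chr5:97392167-97392466, chr5:98180619-98180918 and chrX:69360081-69360380, all on the plus strand of GRCm38.p6. The Prdm8 promoter lies wholly inside the gene span given above, so it is that of an internal start.
4930467D21Rik: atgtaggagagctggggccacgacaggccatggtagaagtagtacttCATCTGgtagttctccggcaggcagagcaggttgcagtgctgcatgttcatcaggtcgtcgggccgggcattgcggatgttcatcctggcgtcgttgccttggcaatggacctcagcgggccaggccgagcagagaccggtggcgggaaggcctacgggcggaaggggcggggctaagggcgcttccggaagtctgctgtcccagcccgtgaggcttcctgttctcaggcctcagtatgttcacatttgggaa
Prdm8: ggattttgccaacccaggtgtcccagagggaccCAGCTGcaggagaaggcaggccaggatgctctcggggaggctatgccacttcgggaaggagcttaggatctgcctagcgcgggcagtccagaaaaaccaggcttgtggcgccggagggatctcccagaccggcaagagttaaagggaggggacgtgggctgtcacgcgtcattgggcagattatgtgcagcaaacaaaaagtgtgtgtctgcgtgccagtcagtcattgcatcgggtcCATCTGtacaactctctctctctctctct
Aff2: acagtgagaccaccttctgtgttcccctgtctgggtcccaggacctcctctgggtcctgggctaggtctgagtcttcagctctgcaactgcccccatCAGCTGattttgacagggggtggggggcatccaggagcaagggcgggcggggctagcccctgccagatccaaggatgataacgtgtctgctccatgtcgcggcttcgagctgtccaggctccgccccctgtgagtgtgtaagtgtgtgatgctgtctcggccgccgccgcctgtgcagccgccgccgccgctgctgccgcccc
CAGATG was in 2 of the 7 promoters and CAGCTG in 2 of the 7, against 17.2% and 16.3% of all 32851 promoters in the table. Prdm8 held both, 4930467D21Rik CAGATG and Aff2 CAGCTG, and the other 4 promoters held neither. With 7 promoters this is a description of these letters only.

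NB1 was set against NPC, the cycling progenitors. NPC has 112 nuclei in w1, 75 in w2 and 22 in w4, with 76298 UMIs in w4. A level of 39.3 CPM in NPC in w4 is thus 3 UMIs, and the low NPC levels below rest on few UMIs. Of 7804 features with a mean of 20 CPM or more, 830 (10.6%) were higher and 1180 (15.1%) lower in NB1, where a call needs a mean log2 ratio of CPM + 1 of at least 1 in size and the same sign in every library. This split depends on the scaling: TMM factors moved the median of all features by 0.268 and gave 1052 higher and 720 lower, and RLE factors gave 829 and 853. Top2a, the topoisomerase of dividing cells, was at 0.314, 1.71 and 0 CPM in NB1 in w1, w2 and w4, against 405, 471 and 734 CPM in NPC (log2 ratio -8.41 ± 1.05). Neil3, a repair glycosylase (-8.08 ± 0.52), Clspn, a checkpoint adaptor (-6.81 ± 1.19), Esco2, a cohesin acetyltransferase (-6.74 ± 0.98), Uhrf1, which maintains DNA methylation (-6.70 ± 0.57), and the non-coding Gm5607 followed. All 15 tested genes of the progenitor list were lower, with a median log2 ratio of -4.22 against -0.14 over all features tested. The list was picked to mark NPCs, so its direction is no independent finding.

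The proneural and intermediate-progenitor factors among them were lower but still detected. Eomes, the T-box factor of intermediate progenitors, was at 39.8, 27.6 and 44.8 CPM in NB1 and 267, 200 and 78.6 in NPC. Neurog2 was at 6.13, 7.58 and 2.24 CPM in NB1 and at 60.1, 67.8 and 65.5 CPM in NPC (log2 ratio -3.49 ± 0.76). Sox4, a partner of Sox11, was at 277, 257 and 388 CPM in NB1 and 250, 296 and 367 in NPC, so that the groups overlapped. Of 9 tested Notch genes 4 were lower (Notch1, Notch2, Dll1 and Maml2) and 2 higher, the co-activator Maml3 and the ligand-like Dner. Of 31 transcription factors 6 were higher and 8 lower. Over all features 10.6% were higher and 15.1% lower, a split that turned with TMM factors, and with so few members these 2 lists cannot be set apart from it. Myt1l, a repressor of non-neuronal genes, was at 2149, 1938 and 2016 CPM in NB1 and 114, 64.7 and 39.3 in NPC (4.92 ± 0.71).

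The features most raised over NPC were Adamts18, a metalloprotease of the matrix (664, 568 and 580 CPM against 4.01, 3.08 and 0), Nell1, a secreted protein (616, 584 and 415 against 4.01, 9.24 and 0), Nrg3os and Rgs6, a brake on G-protein signalling (569, 597 and 567 against 0, 9.24 and 13.1). No UMI of Fam163a or 4933413L06Rik was counted in the NPC libraries. For Fam163a this allows up to 6.01 CPM in w1, 9.24 in w2 and 39.3 in w4, all below its level in NB1. Of 30 cytoskeleton genes 11 were higher and none lower, beside 10.6% and 15.1% of all features, among them Stmn2, which destabilises microtubules (193, 218 and 197 CPM against 28.1, 21.6 and 39.3), the collapsin response protein Dpysl5 (2.62 ± 1.53), the kinesin Kif5c (1.74 ± 0.16) and Dcx (1.57 ± 0.62). Their median was 0.57.

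Receptors and channels were already present. Against 10.6% higher and 15.1% lower over all features, or 1052 higher and 720 lower with TMM factors, of 17 glutamate receptor genes 11 were higher than in NPC and 3 lower, of 29 ion channel genes 18 and 2, and of 13 genes of GABA signalling and chloride transport 6 and 2. Gria2, the AMPA receptor subunit that limits calcium entry, was at 3160, 3046 and 3110 CPM against 1052, 909 and 1166 (1.58 ± 0.17). Pooled over libraries, it was highest of all clusters in NB1. The NMDA receptor subunit Grin2b was at 1548, 1636 and 1494 CPM (1.99 ± 0.24). The GABA-A subunit Gabra2 rose to 593, 532 and 484 CPM (3.84 ± 0.69). Slc12a2, the chloride importer that keeps GABA depolarising, was at 82.7, 82.7 and 73.9 CPM in NB1 and at 66.1, 61.6 and 39.3 CPM in NPC, which was not past 2-fold. Slc12a5, the exporter, was at 2.99, 5.14 and 11.2 CPM in NB1, too low for a call, and its pooled level was 4.13 CPM there and 24.0 CPM in GCimm1. Presynaptic genes were higher in 10 and lower in 2 of 20, postsynaptic ones higher in 8 and lower in 1 of 18. The paper had already described genes of synaptic transmission with an onset in NB1 in these nuclei. The direction of these lists is therefore no independent finding. Levels of different genes are not compared here, since long genes give more nuclear UMIs.

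**Figure D3:**
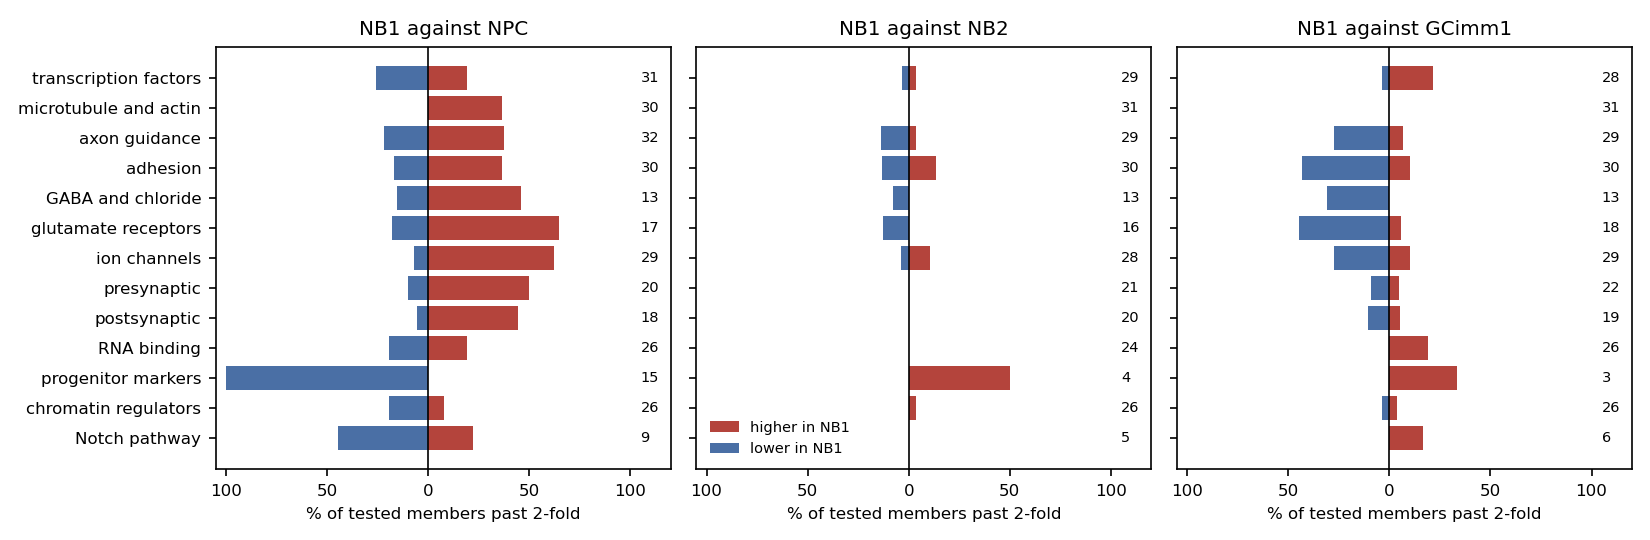
Share of the tested members of 13 gene lists past 2-fold in NB1 against NPC, NB2 and GCimm1 (red, to the right: higher in NB1; blue, to the left: lower; digits: tested members). Receptor, channel and adhesion lists lean to higher against NPC and to lower against GCimm1, and few members pass against NB2 in most lists.

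Of all clusters NB2 had the fewest features past 2-fold from NB1 at these settings. The order turned against GCimm1 without w2 (518 for NB2 and 494 for GCimm1), after thinning to 2000 UMIs (565 and 492) and without a filter on low levels (1750 and 1417). Of 7167 features 185 (2.58%) were higher and 97 (1.35%) lower in NB1. The higher count rested on w4, in which NB2 has 18 nuclei: without it 61 were higher and 103 lower, and male nuclei of w1 with female nuclei of w2 gave 56 and 104, of which 38 and 72 were also called over all nuclei. RLE factors gave 107 and 113. The 6 lowest features in NB1 kept their call within 1 sex. Ratios to NB2 within 1 sex use w1 and w2 only, so their SDs are over fewer libraries than those over all nuclei. One sign in every library is also easier to meet there. Arhgap6, a GTPase-activating protein, was at 13.2, 39.1 and 58.3 CPM in NB1 in w1, w2 and w4 and at 646, 583 and 1038 CPM in NB2 (log2 ratio -4.50 ± 0.88 over all nuclei, -4.60 ± 0.87 within 1 sex). Esr1, the oestrogen receptor, was at 1.57, 2.45 and 11.2 CPM in NB1 and 47.0, 58.4 and 51.2 in NB2. Hs6st2, which sulfates heparan, was at 10.1, 10.8 and 6.72 CPM against 126, 114 and 154. In none of these did the levels of NB1 and NB2 overlap, and Esr1 (-4.62 ± 0.76) and Hs6st2 (-3.61 ± 0.33) were also called within 1 sex, as were Gm15261, Ltbp1, a binder of latent TGF-beta, and the cadherin Cdh4.

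Of 16 tested genes of the neuroblast list 3 were lower in NB1 than in NB2 and none was higher, with a median log2 ratio near 0. Over all features 1.35% were lower and 2.58% higher. Tac2, the precursor of neurokinin B, was at 42.9, 55.5 and 58.3 CPM in NB1 and 353, 250 and 384 in NB2 (-2.62 ± 0.44). Calb2, which encodes calretinin, was at 142, 166 and 173 against 391, 368 and 602 CPM (-1.46 ± 0.33), and Rgs6 at 569, 597 and 567 against 2160, 2184 and 1934 (-1.85 ± 0.08). A UMI of Tac2 was found in 14.9% of NB1 and 57.9% of NB2 nuclei, and in 6.7% of oligodendrocytes. All 3 kept their call within 1 sex, at -2.63 ± 0.35 for Tac2, -1.37 ± 0.14 for Calb2 and -1.70 ± 0.11 for Rgs6. The GABA-B receptor subunit Gabbr2 (-1.47 ± 0.26), the NMDA subunit Grin2a (-1.71 ± 0.44) and the guidance cue Sema3c (-1.08 ± 0.08) were lower as well, and within 1 sex Gabbr2 (-1.06) and Grin2a (-1.72) were still called and Sema3c (-0.99) was not.

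The adhesion and guidance lists had no common direction against NB2. Of 30 adhesion genes 4 were higher in NB1 (Cntn5, Ncam2, Opcml and Tenm2) and 4 lower (Cdh4, Sdk1, Tenm4 and Adgrl2). Of 29 guidance genes 1 was higher and 4 lower, beside 2.58% higher and 1.35% lower over all features. Cntn5, a contactin of the cell surface, was at 547, 450 and 370 CPM in NB1 and 87.1, 78.3 and 25.6 in NB2 (2.98 ± 0.71, and 2.46 ± 0.09 within 1 sex). Tspan18, a tetraspanin, was at 60.0, 102 and 71.7 against 2.44, 10.6 and 12.8 CPM, and Sez6l at 79.8, 82.4 and 78.4 against 20.5, 23.9 and 0. Cadm1, a synaptic adhesion molecule (260, 309 and 264 against 59.2, 91.6 and 64.1 CPM), and Cdk6, a G1 kinase (146, 117 and 166 against 39.7, 35.9 and 25.6), belonged to this side too. Eomes was higher in NB1 (39.8, 27.6 and 44.8 against 10.4, 7.97 and 25.6 CPM), as was Chd7, a chromatin remodeller (1.26 ± 0.26). Within 1 sex Cadm1 (2.12), Cdk6 (1.64) and Chd7 (1.23) were still called. Eomes (1.23 ± 0.05) was not, because its mean level there was under 20 CPM, although its ratio was past 2-fold. Rorb, Chrm3 and Sgcz had large mean ratios (2.76 to 2.84) with no UMI of them in NB2 in w4, and within 1 sex Rorb (0.61) and Chrm3 (0.95) were not called and Sgcz was (1.21 ± 0.99). None of the tested cytoskeletal (31), presynaptic (21), postsynaptic (20), RNA-binding (24) or Notch (5) genes passed 2-fold against NB2 in either direction. With 2.58% and 1.35% of all features past it, counts of 0 in lists of this size are near the background. Over all nuclei the adhesion counts, 4 and 4 of 30, were above these shares, as were the 4 of 29 guidance genes lower in NB1. These list counts were not repeated within 1 sex or without w4, in which NB2 has 18 nuclei. Of these adhesion genes only Cntn5 and Cdh4 were also compared within 1 sex, and both were called. The paper had already named guidance and cell-cell interaction genes, Cdh4 among them, as raised in NB2, so these counts are no independent finding.

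**Figure D4:**
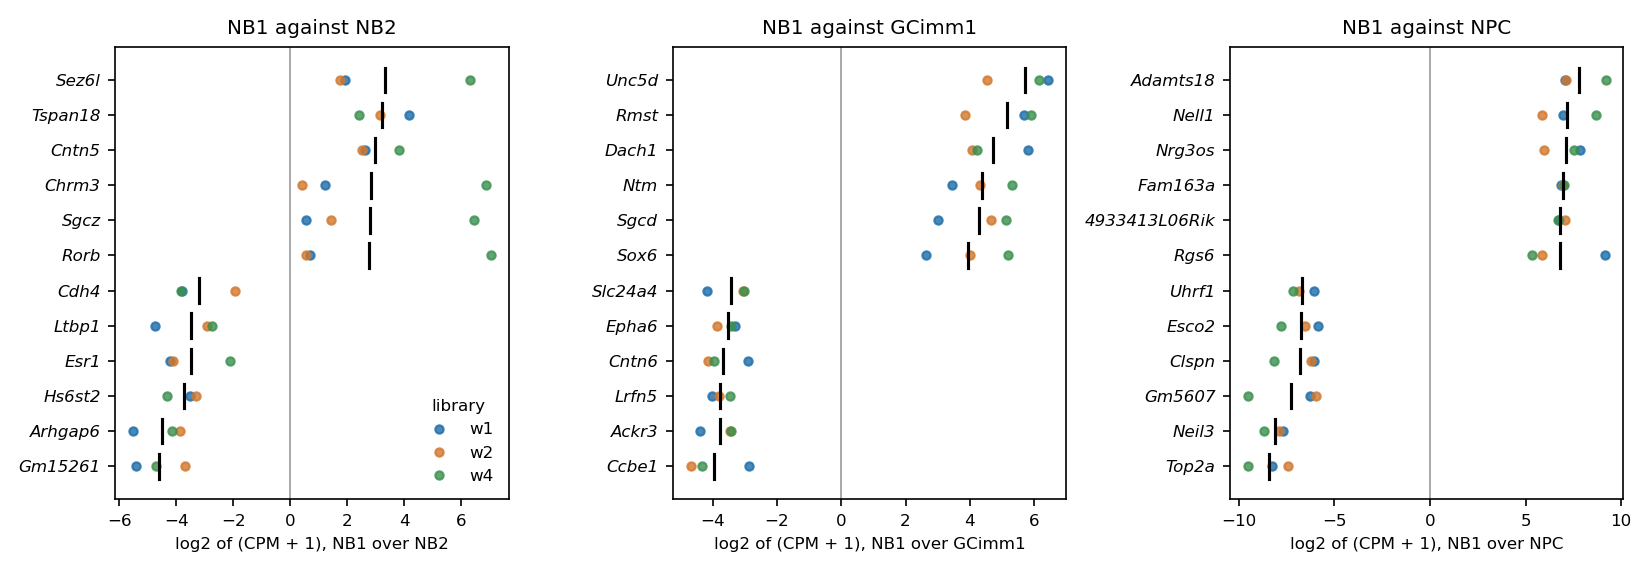
Log2 ratios of CPM + 1 of NB1 to NB2, GCimm1 and NPC for the 6 highest and 6 lowest features of each comparison (points: libraries, bars: mean). For Sez6l, Chrm3, Sgcz and Rorb the w4 point against NB2 lies far to the right of the others because NB2 had no UMI there, and the size of a ratio to a level of 0 depends on the 1 added.

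GCimm1, the immature granule cells that follow on the path, differed in adhesion, guidance and transmitter receptors. Of 7166 features 181 (2.53%) were higher and 266 (3.71%) lower in NB1. One step further, against GCimm2, 625 of 7182 (8.7%) were higher and 559 (7.78%) lower. That count used w2 and w4 only, and 1 sign in every library is easier to meet in 2. Against RGL, at the start of the path, 1119 of 7612 (14.7%) were higher and 1054 (13.8%) lower. Against GCimm1, TMM factors, which moved the median of all features by -0.103, gave 145 and 298, RLE factors 129 and 315, and nuclei of 1 sex per library 170 and 250. Of 30 adhesion genes 13 were lower and 3 higher (median -0.53 against 0.13 over all features), of 18 glutamate receptor genes 8 were lower and 1 higher (median -0.76), of 29 ion channel genes 8 and 3, and of 29 guidance genes 8 and 2. The paper had already reported receptor, channel and guidance genes as rising from NB1 to GCimm1 in these nuclei. The direction of these lists is therefore no independent finding. Epha6, an ephrin receptor, was at 47.0, 63.4 and 108 CPM in NB1 and 475, 940 and 1168 in GCimm1 (-3.54 ± 0.30). Lrfn5, a synaptic adhesion molecule, was at 19.0, 49.4 and 65.0 against 324, 709 and 728 CPM (-3.77 ± 0.28). Ccbe1, the chemokine scavenger Ackr3, Cntn6 and Slc24a4 were the others of the 6 lowest, at -3.42 to -3.96. No NB1 library reached the lowest GCimm1 library for any of these.

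Receptors followed the same direction, though not all of them. The metabotropic receptor Grm5 was at 382, 419 and 334 CPM in NB1 and 1121, 1556 and 1491 in GCimm1 (-1.87 ± 0.30), Grin2a at 85.2, 135 and 125 against 403, 437 and 416 (-1.88 ± 0.30), and the extrasynaptic GABA-A subunit Gabra5 at 30.8, 55.8 and 47.1 against 124, 245 and 268 (-2.19 ± 0.26). Gria2 (0.18 ± 0.11) and Grin2b (-0.39 ± 0.03) did not pass. The guidance receptors Nrp1 (-1.61 ± 0.40) and Robo1 (-1.72 ± 0.22) and the zinc-finger factor Bcl11b (-1.51 ± 0.23) were lower in NB1. Immature granule cell markers were lower in 5 of 11 and higher in none, beside 3.71% lower and 2.53% higher over all features. That list was picked to mark immature granule cells, so its direction is no independent finding.

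The 6 features highest in NB1 over GCimm1 were of several kinds. Unc5d, a netrin receptor, was at 483, 425 and 374 CPM in NB1 and 4.58, 17.5 and 4.31 in GCimm1 (5.70 ± 1.03), and Rmst, a non-coding partner of Sox2, at 129, 100 and 132 against 1.53, 6.03 and 1.23. Dach1 (4.71 ± 0.96), Ntm, an adhesion molecule (4.36 ± 0.93), Sgcd (4.27 ± 1.12) and Sox6 (3.95 ± 1.28) completed the 6. Part of them was highest in the NB1 nuclei earliest in pseudo-time: over the tertiles of w1 from earliest to latest, Unc5d was at 1374, 56.4 and 15.6 CPM, Rmst at 291, 68.1 and 29.8 and Dach1 at 157, 5.83 and 2.75 (but at 113, 128 and 20.5 in w4), whereas Ntm (274, 210.5 and 151) and Sgcd (179, 243 and 81.7) were spread more widely. Unc5d had a UMI in 646 of the 2578 nuclei and Dach1 in 206. Slc1a3, the glial glutamate transporter, was at 315, 227 and 264 CPM against 19.8, 16.8 and 15.4 (3.87 ± 0.18), and over the same tertiles of NB1 it was at 768, 122 and 54.1 CPM. The neuronal RNA-binding genes Elavl4 (3.59 ± 0.45) and Elavl2 (2.17 ± 0.39) were among 5 of 26 RNA-binding genes that were higher, with none lower, where 2.53% of all features were higher. Both were also highest in the earliest tertile of w1, at 427 CPM for Elavl4 and 1110 CPM for Elavl2, against 16.1 and 252 in the latest. Of 28 transcription factors 6 were higher, namely Sox4 (1.24 ± 0.61), Id2 (1.51 ± 0.40), Lhx2, Emx1, Emx2 and Cux1, and Bcl11b was the one lower. The mean ratios of the 31 tested cytoskeletal genes all lay within 2-fold, from -0.87 to 0.74 on the log2 scale.

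Taking both neighbours at once, more features differed from NPC alone than from GCimm1 alone. Among 6780 features tested in both comparisons 702 (10.4%) were higher and 481 (7.09%) lower than in NPC with no call against GCimm1, and 76 were higher and 64 lower against GCimm1 only. A fall at both steps was seen in 71, a rise at both in 95, a peak in NB1 in 32 and a trough in 14. Slc1a3 fell from 1747, 1611 and 1638 CPM in NPC through NB1 to GCimm1, and Chd7 (1285, 287 and 50.3 CPM pooled), Dach1, Sox6 and Cdk6 took the same course. Gabbr2 rose from 2.00, 12.3 and 0 CPM in NPC to 87.4, 96.9 and 82.9 in NB1 and 438, 526 and 488 in GCimm1, and so did Ryr3, a calcium release channel, and the kinase Camk4. The peak set held Car10, a carbonic anhydrase-related protein (0, 3.08 and 0 CPM, then 114, 113 and 94.1, then 12.2, 6.58 and 9.23), Inpp4b, a lipid phosphatase (126, 191 and 155 CPM in NB1), Ppp2r2b (936, 712 and 874), Id2, an inhibitor of helix-loop-helix factors (91.3, 80.7 and 91.9), L3mbtl4 and 4930467D21Rik. In these 6 no library of NPC or GCimm1 was as high as the lowest of NB1. NB2 and the later granule cell clusters were not part of this rule, so the peak is one between NPC and GCimm1 only. In NB2 the pooled level was above that of NB1 for Ppp2r2b (1263 against 849 CPM), Inpp4b (170 against 152) and L3mbtl4 (114 against 84.6), and below it for Car10 (36.7 against 113), Id2 (56.7 against 87.4) and 4930467D21Rik. The trough set held Lhfp (128, 102 and 91.7 CPM in NPC, 8.33, 4.89 and 11.2 in NB1 and 94.6, 82.4 and 84.3 in GCimm1), the transcription co-factor Lmo3 and Gabrg3.

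NB1 was not uniform along the authors' pseudo-time, which ran from 3.18 to 15.6 in it with a median of 13.0. Splitting NB1 of each library into tertiles of pseudo-time gave 498, 496 and 498 nuclei in w1, 319, 318 and 319 in w2 and 44, 42 and 44 in w4. Of 7253 features 478 (6.59%) were higher and 370 (5.1%) lower in the latest than in the earliest tertile, in every library. Pseudo-time was computed from the same values, so this describes the axis and does not test it. Eomes was at 99.7, 17.5 and 2.29 CPM over the tertiles of w1, at 70.0, 11.7 and 1.47 in w2 and at 126, 6.71 and 0 in w4, so that it was highest in the earliest tertile of each library and still detected in the middle one. Lama2, a laminin chain, fell from 1173 to 49.1 and 34.4 CPM in w1 and in the same way in w2 and w4 (log2 ratio of latest to earliest -5.16 ± 0.10). Mpped1 (-5.76 ± 0.80), Tmem163, Daam2, Zfp462, Sv2c and Frmpd4 were the others of the 8 steepest falls. Dab1, the adaptor of reelin signalling, rose from 115 to 2607 and 5390 CPM in w1, Nrg3, a neuregulin, from 113 to 2225 and 5674, and Nell1 from 16.9 to 670 and 1151. Lrrtm3, Nrg3os, Gsg1l, Gm20642 and Gm15398 rose with them. The markers themselves moved less: Dcx changed by -0.36 ± 0.06, Sox11 by 0.09 ± 0.18, Prox1 by 0.82 ± 0.34, Igfbpl1 by -0.79 ± 0.17 and Fam163a by 1.68 ± 0.37 on the log2 scale, of which Fam163a alone passed 2-fold.

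**Figure D5:**
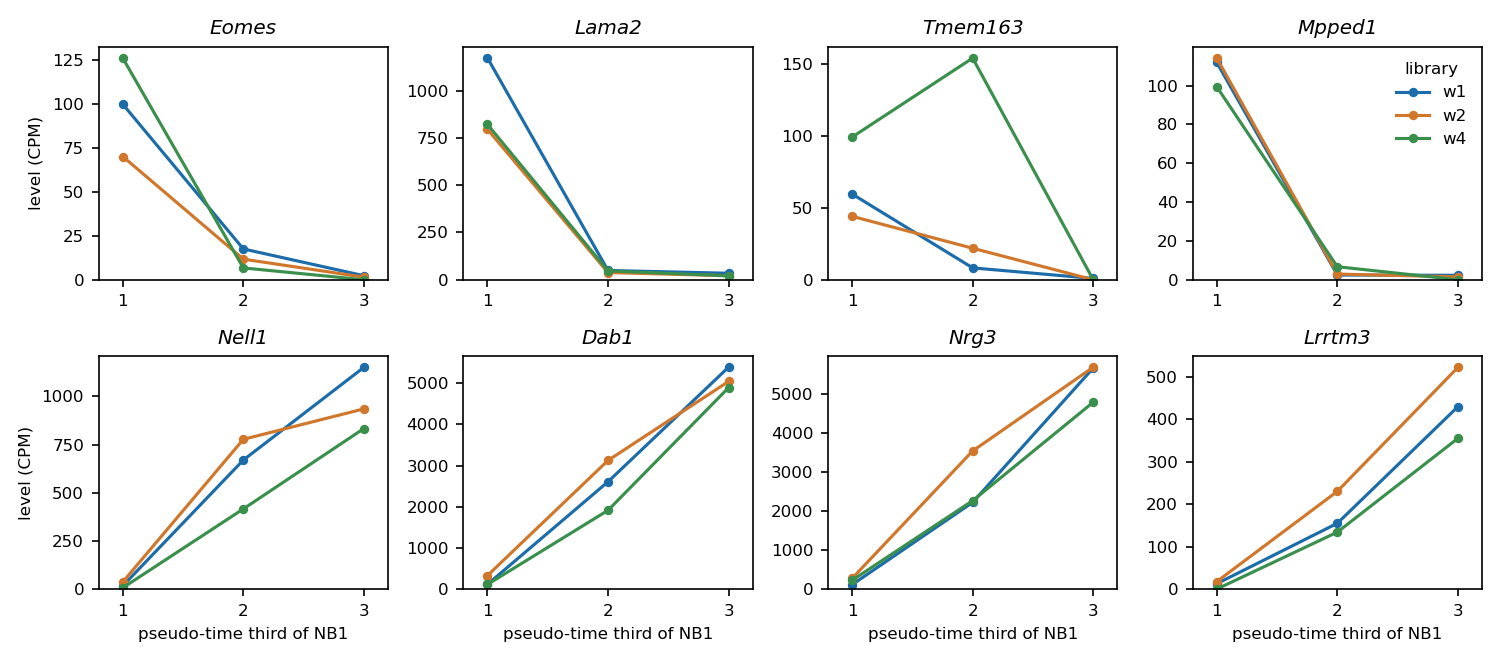
Levels (CPM) of 4 falling and 4 rising genes in the earliest (1), middle (2) and latest (3) pseudo-time tertile of NB1, by library. Eomes, Lama2 and Mpped1 have their largest drop before the middle tertile in every library, Tmem163 is at 21.9 CPM in w2 and 154 CPM in w4 in the middle tertile, and Nell1, Dab1, Nrg3 and Lrrtm3 rise in all 3 libraries.

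A few nuclei carried most UMIs of some genes. Of 9660 features with at least 100 UMIs in NB1, 48 were found in fewer than 1 of 2 of the nuclei that their UMIs would reach if spread by depth. Meis2, a homeodomain factor of striatal and olfactory lineages, had 942 UMIs in 68 nuclei, where 773 nuclei would be reached, Erbb4, the neuregulin receptor of interneurons, 459 UMIs in 69 and Adarb2, an RNA-editing relative, 311 UMIs in 59. Taking the nuclei with a UMI of at least 2 of the 9 matched genes of the interneuron list, a rule set after these values were seen, gave 30 of the 2578 (1.16%), 15 in w1, 13 in w2 and 2 in w4. They held 381 of the Erbb4, 256 of the Adarb2 and 647 of the Meis2 UMIs, which is 83.0%, 82.3% and 68.7% of all in NB1, although none of the 3 genes was used to choose them. Of genes that were used they held 92 Gad2 UMIs (80.7%) and 32 Dlx1 UMIs (88.9%). The 30 nuclei were not alike: Gad1 was in 26 of them, Meis2 in 17, Gad2 in 16, Dlx1 and Erbb4 in 14 each and Adarb2 in 12. Gad1 was also in 292 other NB1 nuclei, so the values below are of a mixed set of 30 nuclei. Dcx was at 629 CPM in them and 452 in the other NB1 nuclei, Igfbpl1 at 697 and 711, Prox1 at 485 and 872, and Tbr1 had no UMI in them, against 36.9 CPM in the others. Their median pseudo-time was 8.74 against 13.0, and their median depth 4638 against 4047.5 UMIs. The same rule took 2.01% of GCimm1, 4.74% of NPC and 0.413% of NB2 nuclei. Without the 30 nuclei the counts of features past 2-fold became 288 against NB2, 452 against GCimm1 and 2020 against NPC. Levels of single genes moved more: Nrxn3 was at 429 CPM over all NB1 nuclei and 94.1 CPM without them, and the 30 nuclei held 57.4% of the Sox2ot UMIs, which was at 59.4 CPM in the others.

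NB1 nuclei of different weeks were compared as single libraries. From w1 to w2, 39 of 7210 features (0.541%) were 2-fold or more higher and 5 (0.0693%) lower, in 1 library each. From w1 to w4, where NB1 has 130 nuclei, 169 of 7122 (2.37%) were higher and 112 (1.57%) lower, and from w2 to w4, 75 of 7327 (1.02%) and 151 (2.06%). After thinning to 2000 UMIs the counts in both directions together were 71, 474 and 460. The largest rises were of Cyp4x1, a cytochrome P450 (2.67 CPM in w1, 79.7 in w2 and 0 in w4), Gm12280 (0, 43.5 and 0), 4930532G15Rik (2.67, 47.7 and 2.24), Gm16432 (23.1, 280 and 33.6) and Nt5e, the ecto-nucleotidase CD73 (6.44, 50.4 and 4.48). They stood out in w2 and were back in w4. The same w2 level was found outside NB1: Gm16432 was at 47.0, 367 and 68.5 CPM in RGL and 18.3, 261 and 38.8 in GCimm1, and Cyp4x1 at 0.435, 106 and 1.47 in RGL. In w2 a UMI of Gm16432 was in 66.8% of male and 71.8% of female NB1 nuclei. The falls were Ttr (85.0, 15.4 and 130 CPM), which carries thyroid hormone, Adarb2 (37.7, 16.6 and 6.72), Steap2, Gm20417 (1034, 493 and 509) and Nmnat3. Ttr was also lowest in w2 in NB2 (61.6, 6.64 and 115 CPM) and GCimm1 (79.4, 13.2 and 97.9), but not in RGL (82.2, 117 and 169). Without the 30 nuclei above, Adarb2 was at 3.34, 7.71 and 6.82 CPM, so that its fall rested on them. These are differences between 3 pools, and the pool and the week cannot be told apart.

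Neurod1, Sox2, Tubb3 and Pou3f3, which were on the lists, had no UMI in any nucleus with a cluster. The span of each lies fully inside another gene on the same strand (Cerkl, Sox2ot, Gm20388 and AC122898.1), and reads shared by overlapping genes could not be assigned, so these zeros say nothing of the genes.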

How the data were processed

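Nuclei were counted with STARsolo 2.7.4a per the labels, on GRCm38, with intronic and exonic UMIs and without reads of several genes. The authors removed low-quality nuclei and doublets, dropped further nuclei of w4, scaled the counts with scran and clustered them; doublets were not called again here. The deposited matrices hold counts of UMIs (45706 features, 17046 barcodes), and the deposited table holds log2 values for 13353 genes with the clusters, pseudo-time and library of 14367 nuclei. The log2 table was used as an alternative only. UMIs were summed per cluster and library and given as CPM.

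Clusters were drawn from the same values and each week is 1 pool, so comparisons are descriptions with no p. A ratio is the log2 ratio of CPM + 1 within a library, given as mean ± SD over libraries with at least 10 nuclei of both clusters. A call needs a mean of at least 1 in size, 1 sign in every library and a mean of 20 CPM. Named genes are the given markers, the leading features, the 6 highest and 6 lowest called features of each comparison and members of the gene lists. The cluster, the lists and the rules were chosen with earlier results of these data known. Intervals are exact Poisson or Clopper-Pearson at 95%, and a count of 0 allows 3 counts. The 9 interneuron genes are those of 10 that matched. Alternatives covered scaling, filters, thinning to 2000 UMIs, sex and left-out libraries. Scripts were tested on simulated data. Python 3.11.15, numpy 2.4.6, scipy 1.17.1, pandas 2.3.3, matplotlib 3.10.9, R 4.3.3 and edgeR 4.0.16 were used. Some items are not reported here.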

Additional observations from a re-analysis of the deposited data

Results flagged for a closer look

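Adarb2, an RNA-editing relative, stood on opposite sides of GCimm1 in different weeks. Its log2 ratio of NB1 to GCimm1 was 1.39 in w1 (240 UMIs against 9), -1.42 in w2 (68 against 507) and -2.39 in w4 (3 against 64). The w1 ratio rested on the 30 NB1 nuclei with UMIs of 2 or more interneuron genes: without them Adarb2 was at 3.34 CPM in NB1 in w1, below the 13.7 CPM of GCimm1 (all its nuclei kept), and no week was then on the other side. Tenm1, a teneurin of the cell surface, had ratios of 1.59 (217 UMIs against 7), 0.0457 (142 against 368) and -1.15 (14 against 115). Each week is 1 pool, and these differences between weeks were not tested.

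Barcodes of the matrices to which the authors gave no cluster also carried the marker genes of NB1. Which of them were removed as doublets, for low quality or as the further nuclei left out of w4 cannot be told apart here. At least 3 of the 5 markers had a UMI in 228 of 410 such barcodes in w1 (55.6%), 273 of 373 in w2 (73.2%), 355 of 1628 in w4 (21.8%) and 24 of 268 in w8 (8.96%). This count does not mark neuroblasts alone, since 95.9% of GCimm1 nuclei also had 3 or more of the markers.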

How the results depend on the processing

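Weeks could not be paired, because each week is 1 library and no replicate numbers are shared between weeks. Ratios between clusters were already taken within libraries, and carry no test since the clusters were drawn from the same values. Levels under about 20 CPM rest on few UMIs, most of all in w4, where 39.3 CPM in NPC is 3 UMIs. Of the main values 62 kept within 1.5 times or their interval and 49 moved; among the other values 3868 kept, 639 moved and 1 turned, Cd1d1, whose ratio to the next cluster was 0.999 without w1. Features led by NB1 (0) were 2 with a minimum of 10 CPM, 617 without a filter, 7 at 1.5-fold and 0 to 3 with a library left out, 3 of them without w2. Those led by neuroblasts (14) were 5 with RLE factors, 6 at 50 CPM, 768 without a filter, 47 at 1.5-fold, 5 at 3-fold, 10 to 26 with a library left out (26 without w2) and 0 on the deposited log2 values. Calls against NB2 (282) were 609 at 10 CPM, 109 at 50 CPM, 1750 without a filter, 765 at 1.5-fold, 163 at 3-fold, 164 to 518 with a library left out, 565 after thinning (GCimm1 492), 164 with 30 or more nuclei, 160 within 1 sex, 12 on the deposited log2 values and 167 by the coefficients of an edgeR fit with library as a term (466 for GCimm1). Those against GCimm1 (447) were 288 at 50 CPM, 1417 without a filter, 1063 at 1.5-fold, 187 at 3-fold and 34 on the deposited log2 values, and those against NPC (2010) were 1090, 4239, 3207, 1164 and 86. The counts on the deposited log2 values ask for a difference of 1 in a mean over nuclei, an unlike measure that low features cannot reach. Week ratios past 2-fold (44, 281 and 226) became 71, 474 and 460 after thinning, and tertile calls (848) became 1683 at 1.5-fold and 425 at 3-fold. Over all barcodes the shares of NB1 were 45.5%, 20.7% and 2.38%. Thinning moved the shares of nuclei with a marker UMI to 55.7%, 70.1%, 72.9%, 17.7% and 72.4%. Asking for 2 UMIs moved the male share to 45.2% in w1 and 27.0% in w2. The cause was not tested, beyond fewer or more features passing where the filter or fold itself changed.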
